A study of Mus musculus with 24 samples.

Results

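Replication-dependent histone genes were the 68 protein-coding genes, of 38215 genes in the table, whose names begin with Hist1h, Hist2h, Hist3h or Hist4h. A further 2 rows with such names are pseudogenes and were left out. The 68 genes code for linker histone H1 (6 genes), H2A (19), H2B (18), H3 (12) and H4 (13). Most (55) lie in the Hist1 cluster on chromosome 13, with 10 in the Hist2 cluster on chromosome 3, 2 in Hist3 on chromosome 11 and 1, Hist4h4, on chromosome 6.

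Replication-dependent histones package the DNA made in S phase, and their genes are switched on together when a cell enters it. In animals their mRNAs are unusual in that most end in a short stem-loop in place of a poly(A) tail. The stem-loop is bound by SLBP, and the end is cut with the help of the U7 small nuclear RNP. Some of these genes can also use a poly(A) signal further downstream, a form best known from differentiating or non-dividing cells. The libraries were made from RNA captured on oligo d(T), so the levels below are those of polyadenylated histone transcripts and not of total histone mRNA.

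RNA came from long-term haematopoietic stem cells (LT-HSCs; lineage-, Sca1+, cKit+, CD150+, CD48-) of mouse bone marrow. Lethally irradiated (11 Gray) C57BL/6J recipients had received 2000000 marrow cells, mixed from a Jak2V617F donor (C57Bl/6N Jak2V617F/+ Tg(E2A-cre), CD45.2) and a WT donor (C57Bl/6N Ptprca, Jak2+/+, CD45.1). Jak2V617F is an activating change in the kinase that serves cytokine receptors and drives myeloproliferative neoplasms. All recipients carried both kinds of cell. They were given pegylated interferon alpha (pegIFN, 600 ng a dose) or vehicle (PBS with albumin) in 5 weekly doses over 4 weeks, and cells were taken 48 hours after the last. This gave 6 libraries each of Jak2V617F pegIFN, Jak2V617F vehicle, WT pegIFN and WT vehicle cells. By the numbers in the library names, the 24 libraries came from 12 mice, each of which gave a Jak2V617F and a WT library. Libraries of a group come from different mice, so the p-values measure the spread between mice, and the labels do not say whether recipients shared donors.

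Total counts ran from 24.6 to 39.7 M a library, of which the histone genes took 0.0326 to 0.0604%. Levels are CPM, a gene's count relative to the total of its library, scaled by TMM, a correction for library composition. Each log2 fold change comes with its standard error (SE), and a gene is called higher or lower where edgeR's quasi-likelihood test gave an adjusted p (Benjamini-Hochberg over 15879 genes) under 0.05. A filter on low counts kept 61 of the 68 genes: 5 of 6 H1, 16 of 19 H2A, 15 of 18 H2B and all H3 and H4 genes. The 7 others stayed at or under 0.52 CPM in every library and include the testis forms Hist1h1t, Hist1h2aa and Hist1h2ba. The 8 LT-HSC markers were detected in every group, at a summed 627 to 2048 CPM.

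The 3′ ends of the annotated transcripts (GENCODE M21, GRCm38) divide the genes. The stem-loop, searched on the transcript strand as a 16-base motif (GG, any 2 bases, CTTTT, any 1, AG, any 2, CC), was found in the longest coding model of 43 of 68 histone genes, against 0.119% of other coding genes. It took 6 spellings, and 25 genes shared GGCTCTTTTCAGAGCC. In 22 genes the model runs on for more than 100 bases past the stem-loop, in 21 it stops within 100 bases of it, and in 25 no stem-loop was found. A poly(A) signal, AATAAA or ATTAAA in the last 50 bases, was present in 17 of 68 histone genes, against 72.3% of other coding genes. The stem-loops of 6 genes that the results turn on are shown with 5 bases on either side where the model holds them. Capitals mark the stem-loop.
Hist1h1c: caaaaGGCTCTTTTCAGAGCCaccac
Hist1h2ac: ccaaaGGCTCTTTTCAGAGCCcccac
Hist1h2ap: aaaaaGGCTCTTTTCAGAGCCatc
Hist2h2aa1: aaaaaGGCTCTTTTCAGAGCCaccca
Hist1h4i: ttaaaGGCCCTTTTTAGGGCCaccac
Hist4h4: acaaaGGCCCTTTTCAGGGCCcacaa
In GRCm38 these lie at chr13:23739507-23739532 (plus strand) for Hist1h1c, chr13:23683472-23683497 (minus) for Hist1h2ac and chr13:21833026-21833049 (minus) for Hist1h2ap. Those of Hist2h2aa1, Hist1h4i and Hist4h4 are at chr3:96246027-96246052 (plus), chr13:22040961-22040986 (minus) and chr6:136803993-136804018 (minus). The H1 and H2A genes shown carry the same 16 bases. The H4 genes shown differ from each other in spelling, and each shares its spelling with other H4 genes.

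The poly(A) signals of 5 genes with both a signal and lower levels under pegIFN are shown. Hist1h2ac, Hist2h2aa1 and Hist1h2bg, also lower in both genotypes, had none in the last 50 bases, nor had Hist1h2ap. Hist1h2ae, which was higher in WT cells, and Hist1h4i, which was not called under pegIFN, had a signal. Capitals mark the signal.
Hist1h1c: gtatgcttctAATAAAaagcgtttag
Hist3h2a: gtatatgcccAATAAAataagagtac
Hist2h2be: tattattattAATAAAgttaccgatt
Hist1h2bq: aagaatattaAATAAAtttgtttctt
Hist4h4: gaggagatgaAATAAAtac
Hist1h1c, Hist3h2a and Hist4h4 thus hold both elements in 1 model, with 840, 1643 and 2445 bases after the stem-loop. In the models of Hist2h2be and Hist1h2bq a signal was found and a stem-loop was not.

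A single H2A gene made up most of the signal. Hist1h2ap averaged 279 CPM over the 24 libraries, and per length it stood at 578 CPM per kb, against 29.5 CPM per kb for the next gene, Hist1h1c. Then came Hist1h4i (18.6), Hist1h2bc (17.8), Hist1h2ao (17.7) and Hist1h2bg (14.6 CPM per kb). Only 6 of the 68 genes had a mean of at least 10 CPM and 31 had at least 1. Hist1h2ap (chr13:21833057-21833575, minus strand) shares 92.6% of its 75-base stretches with Hist1h2ao, so the division of reads between them is uncertain, and the sum of both is used as a check. Its share of the summed CPM of all histone genes had medians of 67.5% in Jak2V617F pegIFN, 51.0% in Jak2V617F vehicle, 67.3% in WT pegIFN and 45.2% in WT vehicle libraries. The share ran from 60.2 to 71.8% under pegIFN and from 41.1 to 63.8% under vehicle.

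Under pegIFN the H1 gene Hist1h1c and some H2A and H2B genes fell in both genotypes. Hist1h2ap, the main H2A gene, rose in WT cells. Over all libraries Hist1h1c averaged 46.0 CPM, against 3.36 CPM for the next H1 gene, Hist1h1d. The summed level of H1 genes was 37.7 ± 7.73 CPM in Jak2V617F pegIFN and 72.0 ± 24.2 CPM in Jak2V617F vehicle libraries (SD, n = 6 each). It was 36.3 ± 10.1 CPM in WT pegIFN and 76.6 ± 26.8 CPM in WT vehicle libraries. Libraries of the 2 treatments overlapped in both genotypes. H2A without Hist1h2ap and Hist1h2ao went the same way, at 32.3 ± 3.75 against 48.8 ± 10.1 CPM in Jak2V617F cells and 31.5 ± 3.56 against 46.0 ± 11.0 CPM in WT cells. Summed H2B was 52.9 ± 4.98 CPM with pegIFN and 63.7 ± 8.77 CPM with vehicle in Jak2V617F cells. In WT cells it was 52.1 ± 4.69 CPM with pegIFN and 60.1 ± 12.6 CPM with vehicle. All 68 genes together came to 516 ± 91.7 against 506 ± 69.9 CPM in Jak2V617F and 471 ± 63 against 405 ± 99.5 CPM in WT cells. Over the scalings tried, the difference of these means ran from -20.8 to 10.1 CPM in Jak2V617F cells, so its sign depends on the scaling. In WT cells it ran from 37.7 to 66.3 CPM. These sums are descriptions without a test, and in bulk RNA fewer cells of a type and less RNA per cell cannot be told apart.

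**Figure D1:**
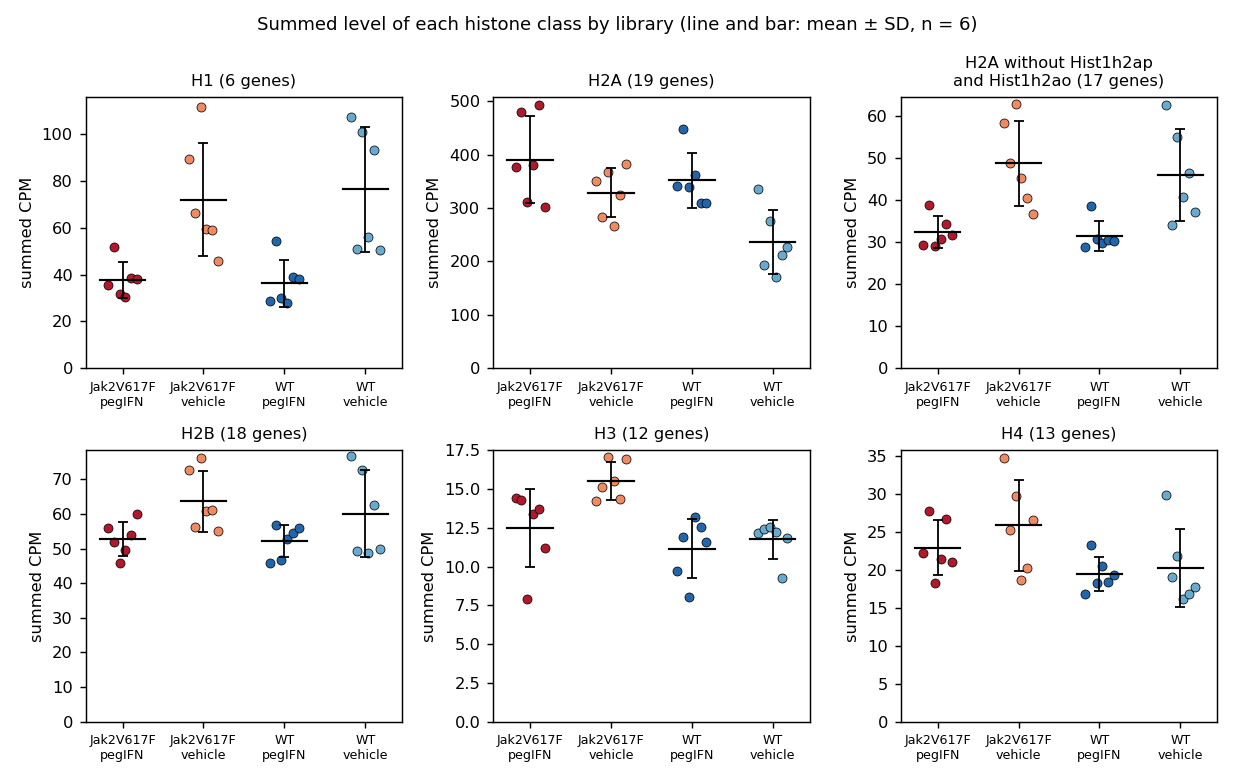
Summed CPM of each histone class in the 24 libraries (points), with the mean and SD of the 6 libraries of each group. H1, which Hist1h1c dominates, and H2A without Hist1h2ap and Hist1h2ao were lower in most pegIFN libraries. Total H2A, which Hist1h2ap dominates, had its lowest mean in WT vehicle libraries (236 CPM).

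In WT cells pegIFN left 4 of 61 histone genes higher and 9 lower, where 28.2% of all genes were called higher and 28.7% lower. The called share, 21.3%, was under that of all genes (56.8%), and the histone genes are shallow in counts. Their median log2 fold change was 0.04, against -0.01 over all genes. In Jak2V617F cells 1 was higher and 12 were lower (21.7% and 22.3% of all genes, 44% in either direction), with a median of -0.31 against -0.01. Both comparisons have their own vehicle libraries, but the Jak2V617F and WT libraries come from the same mice, so the comparisons are not independent. The 9 lower genes described next were called in both: Hist1h1c, Hist1h2ac, Hist2h2aa1, Hist3h2a, Hist1h2bg, Hist1h2bq, Hist2h2be, Hist3h2ba and Hist4h4. For Hist3h2a in both genotypes, Hist3h2ba in WT and Hist4h4 in Jak2V617F cells the call was lost when single libraries were left out, as given with each gene.

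Among linker histones, Hist1h1c (H1.2; chr13:23738807-23740366) was the gene that fell. Its lowest, median and highest levels were 18.7, 27.2 and 42.8 CPM in Jak2V617F pegIFN libraries and 30.9, 52.6 and 100.5 CPM in Jak2V617F vehicle libraries. In WT cells they were 17.8, 26.9 and 46.8 CPM with pegIFN and 38.2, 67.7 and 98.8 CPM with vehicle. In both genotypes the highest pegIFN library overlapped the lowest vehicle libraries. The log2 fold change was -1.10 (SE 0.30, adjusted p = 0.0052) in Jak2V617F and -1.24 (SE 0.30, adjusted p = 0.0013) in WT cells. The other 4 tested H1 genes, Hist1h1a, Hist1h1b, Hist1h1d and Hist1h1e, passed the test in neither genotype. Their fold changes ran from -0.53 to -0.07 in Jak2V617F and from -0.51 to 0.04 in WT cells.

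H2A genes moved in both directions. Hist1h2ac (chr13:23681467-23683948, minus strand) had lowest, median and highest levels of 2.23, 3.06 and 4.56 CPM in Jak2V617F pegIFN libraries, against 4.97, 5.54 and 9.43 CPM in Jak2V617F vehicle libraries. In WT cells these were 2.14, 2.55 and 3.20 CPM with pegIFN, against 3.64, 6.52 and 10.9 CPM with vehicle. Every pegIFN library lay below every vehicle library of its genotype, and the fold changes were -1.02 (SE 0.22, adjusted p = 0.00056) in Jak2V617F and -1.39 (SE 0.22, adjusted p = 9.5e-06) in WT cells.

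Hist2h2aa1 fell by 1.06 (SE 0.33, adjusted p = 0.013) in Jak2V617F and by 1.80 (SE 0.34, adjusted p = 0.0001) in WT cells, on the log2 scale. Its medians were 3.36 CPM with pegIFN and 7.64 CPM with vehicle in Jak2V617F cells, and 2.19 and 8.29 CPM in WT cells, with overlapping ranges. It shares 88.9% of its 75-base stretches with the transcript Gm20634 and most of them with Hist2h2aa2. Summed with Hist2h2aa2 it gave -1.11 in Jak2V617F and -1.41 in WT cells, both called. Hist3h2a, which carries a long tail past its stem-loop, fell by 0.45 (adjusted p = 0.020) in Jak2V617F and by 0.37 (adjusted p = 0.044) in WT cells. The WT call of Hist3h2a was lost in 15 of the 24 fits that left out 1 library, with an adjusted p of up to 0.173 (without WT vehicle replicate 3). In Jak2V617F cells it was lost without pegIFN replicate 4 (adjusted p = 0.052) or vehicle replicate 3 (adjusted p = 0.064).

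Hist1h2ap rose in WT cells. It had lowest, median and highest levels of 269.6, 302 and 399.7 CPM in WT pegIFN libraries and of 128, 173 and 261 CPM in WT vehicle libraries, which did not overlap. The fold change was 0.76 (SE 0.16, adjusted p = 0.0003). In Jak2V617F cells its levels were 259.9, 337 and 449 CPM with pegIFN and 215, 278 and 336 CPM with vehicle, which overlapped, with a fold change of 0.36 (SE 0.16, adjusted p = 0.068), which DESeq2 called higher. Summed with Hist1h2ao the values were 0.77 (adjusted p = 0.00025) in WT and 0.36 (adjusted p = 0.069) in Jak2V617F cells. Hist1h2ae rose in WT cells by 0.79 (SE 0.30, adjusted p = 0.030), a call lost without WT pegIFN replicate 2 or WT vehicle replicate 2 or 4 (adjusted p from 0.052 to 0.066), and had -0.11 in Jak2V617F cells.

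Among H2B genes, Hist1h2bq fell by 1.57 (SE 0.46, adjusted p = 0.0075) in Jak2V617F and by 1.75 (SE 0.46, adjusted p = 0.0023) in WT cells. All of its 75-base stretches occur in Hist1h2br, and the sum of both fell by 1.23 and 1.37 in Jak2V617F and WT cells. Hist1h2bg had lowest, median and highest levels of 4.08, 5.33 and 7.39 CPM in Jak2V617F pegIFN libraries, against 10.05, 11.5 and 14.1 CPM in Jak2V617F vehicle libraries, with no overlap. In WT cells they were 3.41, 5.53 and 12.3 CPM with pegIFN and 5.92, 13.4 and 19 CPM with vehicle, and pegIFN replicates 2 and 4 lay above the lowest vehicle library. The fold changes were -1.12 (adjusted p = 0.0017) and -1.02 (adjusted p = 0.0021) in Jak2V617F and WT cells.

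Hist2h2be, known for its role in mouse olfactory neurons, fell by 0.41 (adjusted p = 0.0055) in Jak2V617F and by 0.39 (adjusted p = 0.0051) in WT cells, and Hist3h2ba by 0.98 (adjusted p = 0.0063) and 0.74 (adjusted p = 0.024). The WT call of Hist3h2ba was lost without WT pegIFN replicate 1 (adjusted p = 0.062) or WT vehicle replicate 5 (adjusted p = 0.081). Hist1h2bc (chr13:23684199-23692488) rose in WT cells, with 19.6, 22.9 and 26.4 CPM against 12.1, 16.1 and 22.7 CPM as lowest, median and highest levels. These ranges overlapped, and the fold change was 0.51 (SE 0.16, adjusted p = 0.0076). In Jak2V617F cells Hist1h2bc had 0.30 (SE 0.16, adjusted p = 0.118).

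H3 genes gave few calls. None of 12 passed edgeR's test in WT cells, also at an unadjusted p under 0.05 (0 genes). In Jak2V617F cells Hist1h3d (-0.66, adjusted p = 0.037) and Hist1h3e (-0.68, adjusted p = 0.026) were lower, and both calls were lost when single libraries were left out. For Hist1h3d these were pegIFN replicates 1, 3, 5 and 6 and vehicle replicates 2 and 3 (adjusted p from 0.056 to 0.103), and for Hist1h3e pegIFN replicates 1 and 3 and vehicle replicates 1 and 4 (0.054 to 0.062), all of Jak2V617F cells. The replicate block by mouse in limma-voom gave Hist1h3d -0.65 (adjusted p = 0.058). The 1 gene called higher in Jak2V617F cells was Hist2h3c1, named after its values were seen. It had 0 counts in all 6 vehicle libraries and 0 to 1.04 CPM, median 0.581, in Jak2V617F pegIFN libraries, and reached 3.90 CPM in 1 WT vehicle library. All of its 75-base stretches occur in Gm20634, DESeq2 did not call it, and no size is given.

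H4 genes also moved both ways. Hist4h4, the only gene of its cluster, had lowest, median and highest levels of 0.166, 0.485 and 0.653 CPM in WT pegIFN libraries, against 0.748, 1.49 and 2.57 CPM in WT vehicle libraries. These did not overlap, and the fold change was -1.79 (SE 0.42, adjusted p = 0.00085). In Jak2V617F cells the levels overlapped, at 0.0988, 0.401 and 0.647 CPM with pegIFN and 0.383, 0.765 and 2.32 CPM with vehicle. There the fold change was -1.21 (SE 0.43, adjusted p = 0.026), with -0.72 (adjusted p = 0.148) without Jak2V617F vehicle replicate 1 and -0.999 (adjusted p = 0.058) without Jak2V617F pegIFN replicate 1. With the mouse as a random block in limma it was -1.11 (adjusted p = 0.063).

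Hist1h4k rose in WT cells, with 0.893, 1.32 and 1.65 CPM with pegIFN against 0.235, 0.641 and 0.986 CPM with vehicle, which overlapped slightly. Its fold change was 1.00 (SE 0.29, adjusted p = 0.0049), and it shares 68.1% of its 75-base stretches with Hist1h4a. Hist1h4h fell by 0.89 (adjusted p = 0.046) in Jak2V617F cells and was named after its values were seen. Hist1h4i, the most abundant H4 gene per length, did not pass in either genotype, with -0.11 in Jak2V617F and 0.06 in WT cells. Nor did Hist2h4, with -0.79 in both (adjusted p = 0.083 in Jak2V617F and 0.073 in WT cells), or Hist1h4a, with -0.67 and 0.08.

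**Figure D2:**
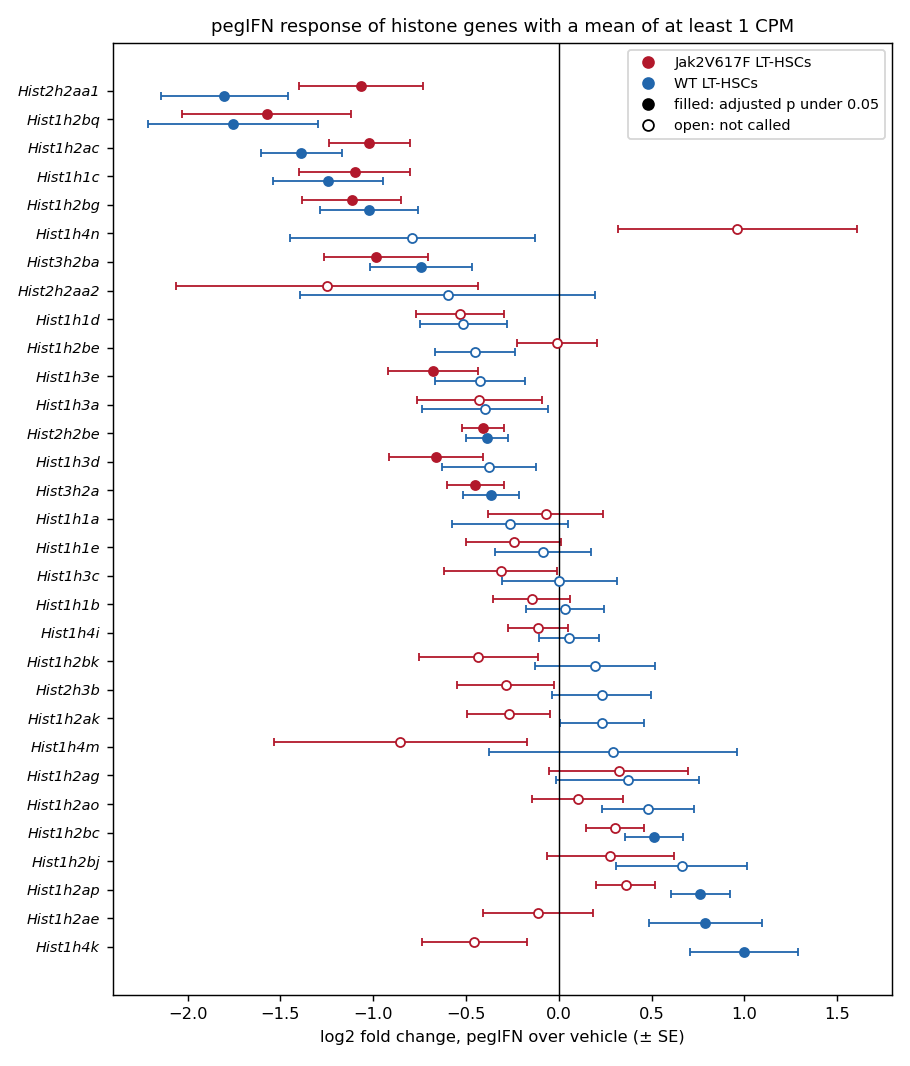
Log2 fold change of pegIFN over vehicle (± SE) for the 31 histone genes with a mean of at least 1 CPM, in Jak2V617F (red) and WT (blue) cells, filled where the adjusted p was under 0.05. The genes called lower are led by Hist2h2aa1, Hist1h2bq, Hist1h2ac, Hist1h1c and Hist1h2bg in both genotypes. In Jak2V617F cells Hist2h2aa2, not called, lies at -1.25, below all of these but Hist1h2bq. Filled points right of 0 (Hist1h2bc, Hist1h2ap, Hist1h2ae and Hist1h4k) occur in WT cells.

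Histone genes were also counted by the end of their annotated transcript, beside the 22.3% (Jak2V617F) and 28.7% (WT) of all genes that were lower under pegIFN. Of 21 tested genes whose model runs past the stem-loop, 8 were lower in Jak2V617F and 6 in WT cells, with medians of -0.45 in both. The WT share is near that of all genes. Of 20 with the stem-loop near the end, 2 were lower in Jak2V617F and 1 in WT cells, with medians of -0.29 and 0.19. Of 20 with no stem-loop found, 2 were lower in each genotype, with medians of -0.31 and 0.13. Taking extended models and models with a poly(A) signal together, 11 of 26 were lower in Jak2V617F and 8 of 26 in WT cells, against 1 of 35 of the other genes in each. In WT cells the share of the first is again near that of all genes, and the share of the second is below it. Levels differed between these groups, with medians of 1.72, 1.02 and 0.923 CPM for extended, near and no stem-loop. Among genes with a mean of at least 1 CPM the counts were 9 of 14 against 1 of 17 in Jak2V617F and 7 of 14 against 1 of 17 in WT cells. No test was run between these groups of genes.

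The annotation the authors counted on is not given in the sources used here, and the gene spans in their table show only its outer bounds. They run more than 100 bases past the stem-loop in 18 of the 22 extended genes and stop within 100 bases in the other 4. For 5 of the 21 genes with the stem-loop near the end the span stops before the end of the stem-loop, Hist1h2ap among them. Divided by these spans instead, 8 of 17 genes with more than 100 bases past the stem-loop were lower in Jak2V617F cells and 6 of 17 in WT cells. For spans that stop within 100 bases it was 2 of 19 and 1 of 19, and for those that stop before the end of the stem-loop 0 of 5 in each. Over all genes 22.3% were lower in Jak2V617F and 28.7% in WT cells. These groups were not tested against each other. Gene counts do not show which 3′ end a read came from.

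**Figure D3:**
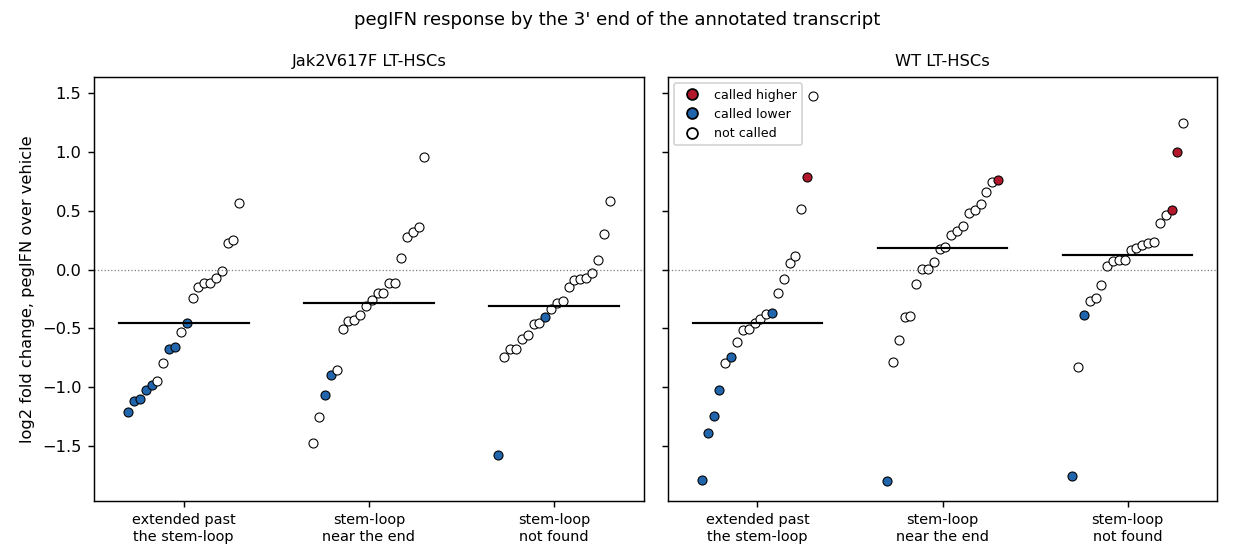
Log2 fold change of pegIFN over vehicle for the tested histone genes by the end of their annotated transcript, in Jak2V617F (left) and WT (right) cells, with bars at the medians. Hist2h3c1 lies outside the axis and is not drawn, but counts in the medians. In WT cells the median of extended models is -0.45, against 0.19 and 0.13 for the other ends.

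H2A and H2B genes often lie head to head and share the DNA between their start sites, and neighbours did not always move together. Of 12 such divergent pairs within 500 bases, 9 had both genes tested. In WT cells 2 pairs were called in opposite directions under pegIFN, 3 had 1 gene called and 4 had none. In Jak2V617F cells 4 pairs had 1 gene called and 5 had none. The pairs called in opposite directions were Hist1h2ac (lower) with Hist1h2bc (higher), 250 bases apart, and Hist1h2bg (lower) with Hist1h2ae (higher), 175 bases apart.

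The ratio of Hist1h2bc to Hist1h2ac in CPM had lowest, median and highest values of 5.02, 8.21 and 8.93 in Jak2V617F pegIFN libraries and 1.91, 3.13 and 3.79 in Jak2V617F vehicle libraries. In WT cells it was 6.68, 9.12 and 12.3 with pegIFN and 1.68, 2.27 and 3.97 with vehicle. The ratio was higher in every pegIFN library than in every vehicle library. This pair was picked for its opposite calls in WT cells of these same data, so the separation follows in part from that choice. Hist1h2bg to Hist1h2ae went the other way, with medians of 4.40 with pegIFN and 7.76 with vehicle in Jak2V617F cells, and 4.27 and 16 in WT cells. Another pair, Hist1h2ao to Hist1h2bq, had medians of 4.62 and 1.57 in Jak2V617F cells and 5.57 and 1.21 in WT cells, again pegIFN first, with reads of both genes uncertain. A ratio within a library does not depend on its scaling.

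**Figure D4:**
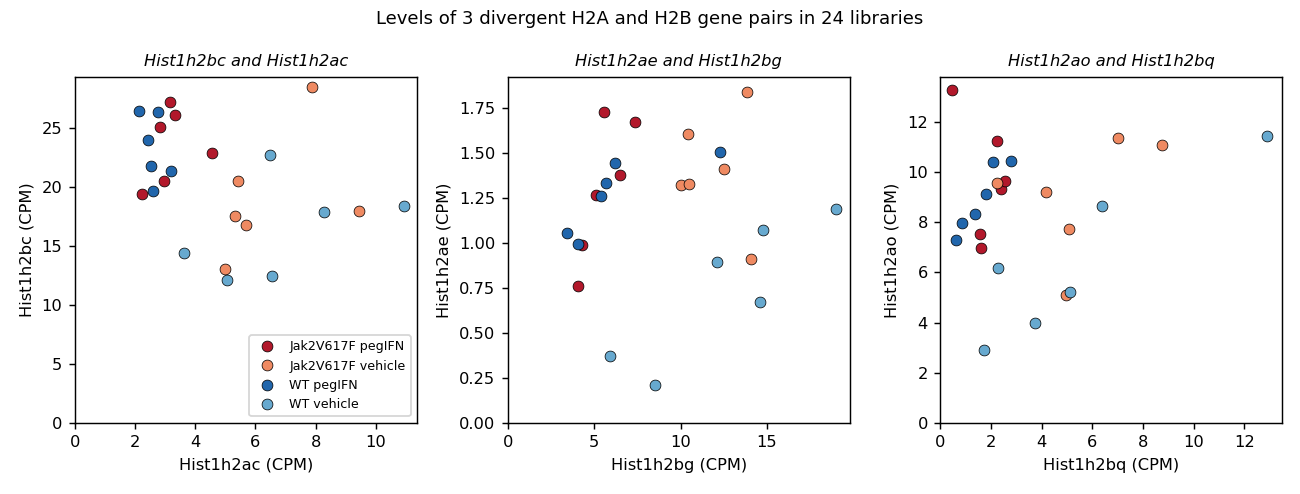
Levels (CPM) of 3 divergent H2A and H2B gene pairs in each of the 24 libraries, coloured by group. For Hist1h2bc and Hist1h2ac the pegIFN libraries lie at 2.14 to 4.56 CPM of Hist1h2ac, left of nearly all vehicle libraries (3.64 to 10.9 CPM), at 19.4 to 27.2 CPM of Hist1h2bc, against 12.1 to 28.5 CPM in vehicle libraries.

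The DNA between Hist1h2ac and Hist1h2bc is shown because both genes start in it and were called in opposite directions in WT cells. It is the RefSeq promoter of Hist1h2ac (GRCm38.p6, chr13:23683910-23684209, minus strand), from 250 bases before the start to 50 after it, and its first bases hold the start of Hist1h2bc on the other strand. Capitals mark matches to CCAAT, the octamer ATTTGCAT and TATAAA on either strand.
Hist1h2ac: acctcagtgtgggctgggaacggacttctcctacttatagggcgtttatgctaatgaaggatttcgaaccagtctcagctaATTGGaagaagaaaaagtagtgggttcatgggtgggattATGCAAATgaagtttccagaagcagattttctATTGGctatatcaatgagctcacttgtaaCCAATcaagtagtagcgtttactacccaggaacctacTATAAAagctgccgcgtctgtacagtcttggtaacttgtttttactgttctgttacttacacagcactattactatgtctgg
CCAAT stands at -169 and -98 on the other strand and at -69 as printed, the octamer at -130 on the other strand, and TATAAA at -32 as printed, counted from the start of Hist1h2ac. None of these matches overlaps another. Over the 62 histone genes with a RefSeq promoter, CCAAT was present in 53, against 37.4% of all promoters of this length. It was in every H1, H2A, H2B and H3 promoter and in 3 of 12 H4 promoters. The octamer, known from H2B promoters as a site for Oct1, was in 7 of 18 H2A and 6 of 16 H2B promoters, against 1.74% of all promoters, and in no other histone promoter. TATAAA was in 35 of 62, against 13.6%. A match shows the letters only.

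In vehicle-treated mice 5 histone genes were higher in Jak2V617F than in WT cells, a share close to that of all genes. Of 61 tested genes 5 were higher and none was lower in edgeR's test, where 8.48% of all genes were higher and 4.23% lower, and the median was 0.44 against -0.01 over all genes. At an unadjusted p under 0.05 there were 14, and DESeq2 called 8 higher and 0 lower. The summed H3 level was 15.5 ± 1.23 CPM in Jak2V617F and 11.8 ± 1.24 CPM in WT vehicle libraries, with no overlap. All 68 genes together, H2A, H3 and H4 were each higher in the Jak2V617F library of 6 of 6 mice, while H1 was higher in 3 and H2B in 4 of 6. Without Hist1h2ap and Hist1h2ao, the sum of all genes was higher in 4 of 6 mice (ratio of means 1.05) and that of H2A in 3 of 6 (1.06).

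Hist1h2ap was higher in Jak2V617F vehicle cells by 0.56 (SE 0.16, adjusted p = 0.024), in 6 of 6 mice. In pairs of libraries from 1 mouse its levels were 282 and 261, 227 and 154, 293 and 212, 215 and 128, 274 and 162, and 336 and 184 CPM, Jak2V617F before WT. Hist1h4k had 1.05, 1.36 and 1.60 CPM as lowest, median and highest levels in Jak2V617F against 0.235, 0.641 and 0.986 CPM in WT vehicle libraries. These did not overlap, and the fold change was 1.07 (SE 0.29, adjusted p = 0.018). Hist1h2ae was higher by 0.94 (SE 0.30, adjusted p = 0.043) in 5 of 6 mice. Hist1h2ah (1.73, adjusted p = 0.039) and Hist1h2ab (0.97, adjusted p = 0.031), named after their values were seen, were higher in 6 of 6 mice each. Hist1h2ah summed with its near-identical Hist1h2ad and Hist1h2ai gave 1.00 (adjusted p = 0.069).

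Hist1h1c and Hist1h2ac, which fell under pegIFN, had -0.16 (SE 0.29, adjusted p = 0.763) and -0.08 (SE 0.21, adjusted p = 0.829) between the genotypes under vehicle. Hist1h4i was higher in Jak2V617F cells of 6 of 6 mice without passing (0.44, SE 0.16, adjusted p = 0.070). With the mouse as a block 14 histone genes were higher and 1, Hist2h3c1, lower, and all 5 genes above were among the 14. Hist2h3c1 had 0 counts in 16 of 24 libraries and its highest level in WT vehicle replicate 4 (3.90 CPM). Over all genes the same block moved the counts to 2779 higher and 2165 lower, against 1346 and 672 without it. The 14 added Hist1h4i (0.46, adjusted p = 0.0016), Hist1h3c, Hist2h3b, Hist1h1b, Hist1h2bj, Hist1h2bc, Hist1h2ao, Hist1h2ag and Hist1h2ak.

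The genotypes also differ in donor sex, so genotype and sex of the donor cannot be told apart. Xist ran from 3.17 to 110 CPM in Jak2V617F and from 1734 to 3466 CPM in WT libraries, apart from 2 libraries. These were Jak2V617F pegIFN replicate 1 (Xist 633 CPM, Y-linked sum 144 CPM) and WT vehicle replicate 4 (641 and 267 CPM). Y-linked genes summed to 151 to 258 CPM in the other Jak2V617F and 2.12 to 78.4 CPM in the other WT libraries. Whether these 2 libraries hold mixed cells or wrong labels was not tested. Without both libraries 2 histone genes were higher under vehicle. Without WT vehicle replicate 4 alone 1 was higher, and Hist1h2ap had 0.47 (adjusted p = 0.077), Hist1h4k 0.88 (adjusted p = 0.052) and Hist1h2ae 0.73 (adjusted p = 0.102). The count was 2 without WT vehicle replicate 5 or 6 or Jak2V617F vehicle replicate 6, and 3 without Jak2V617F vehicle replicate 2 or 5. The call of Hist1h2ap was also lost without WT vehicle replicate 5 (adjusted p = 0.057) or Jak2V617F vehicle replicate 6 (adjusted p = 0.054), and that of Hist1h2ae in 10 of 24 fits without 1 library.

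**Figure D5:**
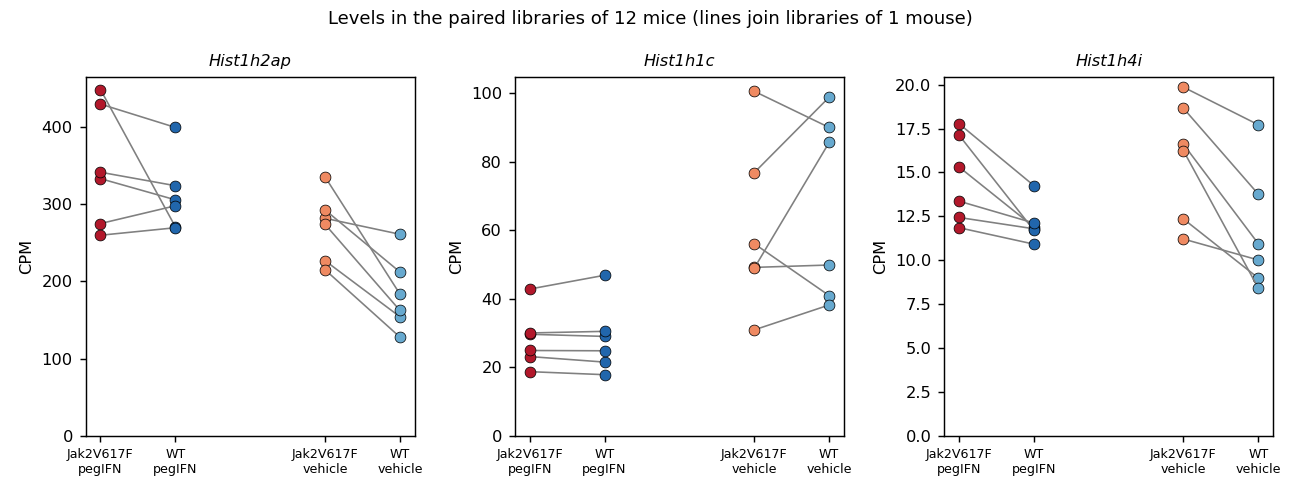
Levels (CPM) of Hist1h2ap, Hist1h1c and Hist1h4i in the Jak2V617F and WT libraries of each mouse, joined by a line, for pegIFN (left) and vehicle (right). Under vehicle Hist1h2ap and Hist1h4i were higher in the Jak2V617F library of 6 of 6 mice, and Hist1h1c in 2 of 6.

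Under pegIFN few histone genes differed between the genotypes. In edgeR's test 1 of 61 histone genes was higher in Jak2V617F cells and none was lower, where 4.16% of all genes were higher and 4.43% lower (8.59% in either direction). At an unadjusted p under 0.05 there were 4 genes, and DESeq2 called 1 higher and 0 lower. The gene was Hist1h2bh, named after its values were seen, with 0.626, 0.912 and 1.29 CPM as lowest, median and highest levels in Jak2V617F against 0.254, 0.447 and 0.541 CPM in WT pegIFN libraries. These did not overlap, and the fold change was 1.15 (SE 0.34, adjusted p = 0.039). Its call was lost in fits without Jak2V617F pegIFN replicate 1, 2, 4, 5 or 6 or WT pegIFN replicate 1, 2, 3, 4 or 5, which gave 0 called genes. The mouse block gave 3 higher, adding Hist1h4n and Hist2h3c1. Hist1h4i was again higher in Jak2V617F cells of 6 of 6 mice (0.27, SE 0.16, adjusted p = 0.308). Hist1h2ap had 0.16 (SE 0.16, adjusted p = 0.583) in 4 of 6 mice.

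Without a mouse block, the response to pegIFN was not shown to differ between genotypes for any histone gene. The interaction is the pegIFN effect in Jak2V617F minus that in WT cells. In this fit it passed edgeR's adjusted test for 0 of 61 histone genes and for 0% of all genes. At an unadjusted p under 0.05 there were 5 histone genes, and DESeq2 called 0. Hist1h4k had the smallest p of them, with -1.45 (SE 0.40, adjusted p = 0.304). Hist1h2ap had -0.40 (95% confidence interval -0.84 to 0.04, adjusted p = 0.640), Hist1h1c 0.14 (-0.67 to 0.96) and Hist1h2ac 0.37 (-0.23 to 0.96). With the mouse as a block Hist2h3c1 was called higher, and over all genes 203 were higher and 325 lower. Hist2h3c1 had 0 counts in 16 of 24 libraries. Its highest level was in WT vehicle replicate 4 (3.90 CPM), a library apart on Xist. The limma-voom fit with mice as a random block called Hist1h2ah and Hist1h4k lower.

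Lists of genes that work with histones are given beside the share of all genes called under pegIFN, which was 21.7% higher and 22.3% lower in Jak2V617F cells and 28.2% higher and 28.7% lower in WT cells. Of 23 histone mRNA processing genes, 12 were higher and 1 lower in Jak2V617F cells, and 15 were higher and 1 lower in WT cells. Their median fold changes were 0.20 and 0.27. Slbp, which binds the stem-loop, had 0.22 (adjusted p = 0.058) in Jak2V617F and rose by 0.28 (SE 0.09, adjusted p = 0.012) in WT cells. The U7 ring proteins Lsm10 (0.28 and 0.32) and Lsm11 (0.05, not called, and 0.24) are given with Jak2V617F before WT. With upper-quartile factors the WT calls of Slbp (0.20, adjusted p = 0.057) and Lsm11 (0.16, adjusted p = 0.079) were lost. The 1 lower gene was Zfp473, the zinc finger protein of the U7 complex, at -0.55 (adjusted p = 0.0091) and -0.48 (adjusted p = 0.016). Its WT call was lost without WT pegIFN replicate 1 (adjusted p = 0.0503). Npat, the cyclin E target that switches on histone genes, had -0.04 (adjusted p = 0.661) and -0.01 (adjusted p = 0.891), and Casp8ap2 and Eri1 were not called either.

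Replacement histones, most of which are made throughout the cell cycle from mRNA with ordinary poly(A) tails, had calls near the shares of all genes, apart from none higher in Jak2V617F cells. Of 11, none was higher and 3 were lower in Jak2V617F cells, and 3 were higher and 3 lower in WT cells. In WT cells the S phase linked H2afx (0.54) and the centromere histone Cenpa (0.68) rose, and H3f3b (-0.37), a source of H3.3, and H1f0 (-0.49), the linker histone of non-dividing cells, fell. In Jak2V617F cells H1f0 (-0.56) and H1fx (-0.51) fell. H3f3b had -0.19 there (adjusted p = 0.046), a call lost in 14 of 24 fits without 1 library (adjusted p up to 0.129, without Jak2V617F vehicle replicate 2), with no filter (0.081) and with counts not rounded (0.072). Of 21 histone chaperones, 11 were higher and 2 lower in Jak2V617F and 15 were higher and 1 lower in WT cells. Daxx, a known interferon-induced chaperone of H3.3, rose by 1.56 and 1.79 in Jak2V617F and WT cells, and its partner Atrx fell by 0.40 and 0.43.

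Cell cycle genes are set beside the same shares of all genes (21.7% higher and 22.3% lower in Jak2V617F, 28.2% and 28.7% in WT cells). Of 25 S phase genes, 16 were higher in Jak2V617F and 21 in WT cells and none was lower, with Mcm5 at 0.42 and 0.65 and Ccne1 at 0.79 and 0.81. Of 20 mitosis genes, 0 were higher and 1 was lower in Jak2V617F cells, against 16 higher and 0 lower in WT cells. Without a mouse block, the interaction called none of these lists' genes. Of 8 CDK inhibitors and quiescence genes, 5 were lower in each genotype and 1 was higher in Jak2V617F cells, with Cdkn1c at -1.22 in Jak2V617F and -1.79 in WT cells. Between the genotypes under vehicle, 20 of 20 mitosis genes, 4 of 25 S phase genes, 8 of 23 processing genes, 7 of 21 chaperones and 4 of 11 replacement histones were higher in Jak2V617F cells, against 8.48% of all genes, and none of these lists had a lower gene, against 4.23%.

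Some markers of other cell types moved with the treatment beside these results. Of all genes, 21.7% were higher and 22.3% lower under pegIFN in Jak2V617F cells, and 28.2% and 28.7% in WT cells. Of 8 tested erythroid markers, 7 were lower under pegIFN in each genotype. Their summed level was 15.3 to 77.0 CPM in Jak2V617F pegIFN, 189 to 482 CPM in Jak2V617F vehicle, 24.5 to 64.9 CPM in WT pegIFN and 195 to 893 CPM in WT vehicle libraries. Of the 8 LT-HSC markers, 6 were lower and 1 was higher under pegIFN in each genotype. Both tested T and NK markers, of 7 listed, were higher under pegIFN in each genotype, and of 5 tested B lymphoid markers 1 was lower in Jak2V617F and 3 in WT cells. Of 5 tested endothelial and stromal markers 2 were lower in Jak2V617F and 3 in WT cells. Of 6 megakaryocyte and platelet markers 0 were higher in Jak2V617F and 2 in WT cells. Of 11 granulocyte and monocyte markers, pegIFN left 1 higher in each genotype and 1 lower in WT cells. Under pegIFN 4 of these 11 were higher in Jak2V617F than in WT cells, against 4.16% of all genes. They summed there to 853 to 1467 against 145 to 658 CPM. The part of these cells in the histone results was not tested.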

How the data were processed

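The authors deposited 1 table of expected counts per gene, which per the submitters' processing notes were made on GRCm38 with RSEM 1.2.30 after STAR 2.5.2a and cutadapt 1.11, and per the labels from single-end 75 bp reads of oligo d(T) captured RNA. RSEM divides reads among genes that share them, so 83.6% of the histone values were not whole, against 16.8% of all values. Counts were rounded and tested in edgeR 4.0.16 (R 4.3.3) with TMM, filterByExpr (minimum count 10, 22336 of 38215 genes removed), 4 group means and robust quasi-likelihood tests. The biological coefficient of variation was 18.6%. Library totals of 24.6 to 39.7 M limit the precision of low genes. Libraries with the same number in their names were taken as 1 mouse; their residuals correlated at 0.119 to 0.416 in 12 pairs, and in 11 of 12 the partner was the closest library, so a mouse block was fitted as well. DESeq2 1.42.0, limma-voom (limma 3.58.1), other factors and filters, fits of only the groups compared, and leaving out each library were alternatives. Summing near-identical genes was chosen after seeing the data. The tests were also run on simulated counts, drawn independently for each gene and library. These held neither the pairing of libraries within mice nor the division of reads among genes, so they cannot speak for either. Transcript ends came from GENCODE M21, which held all 68 genes (59 by ID, 9 by symbol), and promoters from RefSeq. Members and lists were chosen with earlier results of these data known. Named were the 12 most abundant genes, up to 8 called genes each way with a mean of at least 1 CPM, a set list of 14 genes, and up to 4 genes a list with the smallest p.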

Additional observations from a re-analysis of the deposited data

Results flagged for a closer look

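In 6 of 124 groups of 6 values, 1 library lay far from the other 5, where chance alone gives about 1 in 20. WT pegIFN replicate 2 was the library in 4 of them: Hist1h2bg stood at 12.3 CPM (others 3.41 to 6.19), Hist1h4i at 14.3 CPM (10.9 to 12.1), the sum of all histone genes at 595 CPM (434 to 477) and H2A without Hist1h2ap and Hist1h2ao at 38.6 CPM (28.9 to 30.8). Hist4h4 stood at 2.32 CPM in Jak2V617F vehicle replicate 1 (0.383 to 0.917). Summed H3 was 9.27 CPM in WT vehicle replicate 5 (11.9 to 12.6).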

How the results depend on the processing

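Of 41 calls on named genes, values under the alternatives kept the call in 1338 of 1431 cases and lost it in 93, over 16 of the calls, and none changed direction. The counts of histone genes moved by more than 1.5 times in these cases. For genes higher under pegIFN in Jak2V617F cells (1) the count was 0 with no filter, with a filter of 1 CPM in 12 libraries and with only the groups compared, and 2 with limma-voom and the mouse as a random block. For genes higher in Jak2V617F cells under pegIFN (1) it was 0 with no filter, 0 with the 1 CPM filter, 2 with only the groups compared, 3 with the replicate block by mouse and 3 with limma-voom, which also called 1 lower. For genes higher in Jak2V617F cells under vehicle (5) it was 3 with no filter, 2 with only the groups compared, 14 with the mouse block, 18 with limma-voom and 8 with DESeq2. Lower genes there (0) came to 1 with upper-quartile factors, 1 with the mouse block and 2 with limma-voom. For the interaction (0) the mouse block gave 1 higher and limma-voom 2 lower. Without the 2 libraries apart on Xist or Y-linked genes the counts were 0 for genes higher under pegIFN in Jak2V617F cells and 2 for genes higher in Jak2V617F cells under vehicle. Leaving out each library gave 3 to 6 higher and 7 to 11 lower under pegIFN in WT cells, and 0 to 2 higher and 9 to 13 lower in Jak2V617F cells. Between genotypes it gave 0 to 1 higher under pegIFN, and 1 to 7 higher and 0 to 1 lower under vehicle. RLE factors, counts left unrounded, near-identical genes summed and the replicate number as a block moved no count by over 1.5 times, though the number block lost the Jak2V617F calls of Hist4h4 (-1.03, adjusted p = 0.064) and Hist1h3d (-0.63, adjusted p = 0.065). Across treatments the replicate number joins libraries of different mice, so that block is not a pairing by mouse. The mouse numbers in the library names pair libraries within a treatment only. The fixed mouse block could thus be fitted for the genotype comparisons and the interaction, where it lost no call on a named histone gene. Causes were not tested. Depth limits low genes: the SE in WT cells was 0.42 for Hist4h4 and 0.46 for Hist1h2bq, against 0.11 for Hist2h2be.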
